A study of Mus musculus with 2 samples.

Results

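The levels and transcripts of 10 genes of glycolysis were described in mouse midbrain at embryonic day 13.5: the hexokinases Hk1 and Hk2, the phosphofructokinase subunits Pfkl, Pfkm and Pfkp, the aldolase Aldoa, the phosphoglycerate kinase Pgk1, the pyruvate kinase Pkm, and the lactate dehydrogenase subunits Ldha and Ldhb. They were found by symbol through their Ensembl identifiers, and all 10 were present among 43346 gene entries, with 69 annotated transcripts between them. The tissue came from healthy B6NCrl embryos, with both sexes pooled, and no mutation, transgene or treatment is listed. There were 2 libraries of total RNA above 200 nt, each from 10 ng of RNA with spike-ins added, and the labels call them biological replicates 1 and 2. With 1 group there is no comparison between conditions, so levels are compared between genes, isozymes and transcripts of the same libraries, and replicate 1 is set against replicate 2.

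Glycolysis splits glucose into pyruvate and yields ATP without oxygen, and lactate dehydrogenase then turns pyruvate into lactate and back. Several of its steps are served by isozymes, products of related genes that catalyse the same reaction with different regulation or tissue range. In the brain, Hk1, Pfkp, Aldoc and Ldhb are among the isozymes known from adult tissue, while Hk2, the M2 form of Pkm and Ldha are often studied in dividing cells.

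Levels are in TPM, a share of all transcripts in the library that corrects for transcript length, so that genes can be compared. Replicate 1 held 32151659 and replicate 2 held 41915240 estimated reads, of which the 10 genes took 101334 and 133814. All 10 genes were detected, at 1 TPM or more in each library, as were 60.2% of 21474 protein-coding genes. At 50 TPM or more in each library stood 9 of the 10, the exception being Hk2, and 14.9% of protein-coding genes. The neuron markers Tubb3, Stmn2, Snap25, Gap43 and Elavl3 were all detected and summed to 3371 TPM in replicate 1 and 3052 TPM in replicate 2. The midbrain markers Otx2, En1, En2 and Pax7 were detected as well, led by Otx2 at 104 and 117 TPM. All 5 erythroid markers were detected and summed to 3441 and 3413 TPM, led by the embryonic globin Hbb-y. The 5 muscle markers summed to 3.90 and 3.44 TPM, and creatine kinase M (Ckm) was at 0 in replicate 1 and 0.03 TPM in replicate 2. The part of blood or of any other single cell type in the levels below was not tested. In bulk tissue, fewer cells of a type and less RNA per cell cannot be told apart.

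The steps of the pathway differed widely in level. Gene by gene, Pkm stood highest of the 10, and Ldha, Ldhb, Aldoa and Pgk1 followed. The single hexokinase and phosphofructokinase genes were lowest. Pkm ranked 69th among protein-coding genes in replicate 1 and 63rd in replicate 2, whereas Hk2 ranked 10436th and 10423rd. Summed over the isozymes named below, the hexokinase step held 63.5 and 63.3 TPM, the phosphofructokinase step 238 and 237 TPM, the aldolase step 296.7 and 294.9 TPM, and the lactate dehydrogenase step 772 and 783 TPM. The phosphoglycerate kinase step held 204 and 205 TPM, less than the phosphofructokinase step, which is divided over Pfkl, Pfkm and Pfkp.

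**Figure D1:**
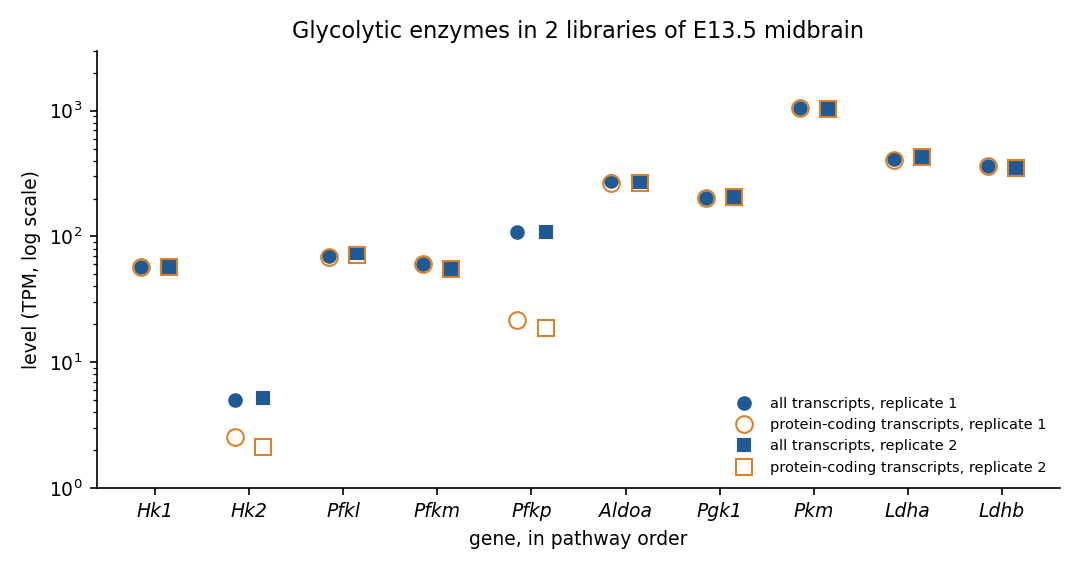
Level of each gene in TPM on a log axis, with genes in pathway order; circles are replicate 1 and squares replicate 2. Filled blue symbols count all transcripts and open orange symbols protein-coding transcripts only. Pkm is highest at 1053 and 1027 TPM and Hk2 lowest at 5.04 and 5.15 TPM; the symbols part clearly for Pfkp and Hk2.

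Order was judged on log2(TPM + 0.1), with the spread between the libraries moderated over 14878 detected genes by limma. A pair was called apart where the two-sided 95% interval of its difference left out 0. The intervals are not adjusted for the number of pairs and cover only the spread between these 2 libraries. Of 45 pairs of the 10 genes, 44 were apart, a share that was not computed over pairs of all detected genes. Among neighbours in the order Pkm, Ldha, Ldhb, Aldoa, Pgk1, Pfkp, Pfkl, Hk1, Pfkm and Hk2, the exception was Hk1 and Pfkm. Hk1 and Pfkm differed by 0.00 on the log2 scale, with an interval of -0.17 to 0.17, and changed places between the libraries.

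Hexokinase phosphorylates glucose and so traps it in the cell. Hk1 (chr10:62268855-62379908, minus strand, GRCm38) is the broadly expressed isozyme, and Hk2 (chr6:82725025-82774454, minus strand) is the inducible one of muscle and fat. Hk1 stood at 57.5 TPM in replicate 1 and 57.3 TPM in replicate 2. Hk2 stood at 5.04 and 5.15 TPM, from 284 and 348 reads. Hk1 was the higher in both libraries, by 3.47 on the log2 scale (95% interval 3.18 to 3.76, SD 0.02, n = 2), or 11.1-fold. With protein-coding transcripts alone, a comparison added after the data were seen, the difference was 4.57 (4.23 to 4.90), or 23.7-fold. Of the summed TPM of Hk1, Hk2, Hk3 and Hkdc1, Hk1 held 90.5% and 90.6%, and Hk2 7.93% and 8.14%.

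Further hexokinase genes were low. Hk3 stood at 0.87 and 0.68 TPM and Hkdc1 at 0.12 and 0.11 TPM, both under the minimum for detection.

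The reads of Hk1 fell on a pair of coding transcripts that begin at different first exons. Hk1-202 (4278 nt) held 64.9% and 68.5% of the gene's TPM, and Hk1-201 (3639 nt), which begins farther upstream, held 34.6% and 30.0%. For Hk2 the share of coding RNA depended on the scale. The short processed transcript Hk2-202 (594 nt) held 50.1% and 58.6% of its TPM but 8.82% and 11.5% of its reads, since TPM divides by length. All 594 of its bases lie in exons of the coding transcripts, so it has no base of its own. Protein-coding transcripts of Hk2 amounted to 2.52 and 2.13 TPM.

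Phosphofructokinase commits sugar to glycolysis and works as a tetramer of liver-type (Pfkl), muscle-type (Pfkm) and platelet-type (Pfkp) subunits. In coding sequence, 71.6% of aligned bases were the same between Pfkl and Pfkm, 67.9% between Pfkl and Pfkp, and 68.8% between Pfkp and Pfkm, each for one leading coding transcript. Pfkp (chr13:6579768-6648777, minus strand) stood at 108 and 109 TPM. Pfkl (chr10:77986947-78010083, minus strand) stood at 69.4 and 73.4 TPM. Pfkm (chr15:98092589-98132451, plus strand) stood at 59.8 and 54.9 TPM. The 3 genes kept this order in both libraries, with no overlap between their values. Pfkp exceeded Pfkm by 0.92 on the log2 scale (95% interval 0.76 to 1.09, SD 0.09, n = 2). Pfkl was below Pfkp, with a difference of -0.60 (-0.77 to -0.44, SD 0.05), and above Pfkm by 0.32 (0.14 to 0.50, SD 0.14).

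Most of the RNA counted for Pfkp was annotated as non-coding. Transcripts annotated as retaining an intron held 79.96% of the TPM of Pfkp in replicate 1 and 82.8% in replicate 2, and protein-coding transcripts held 19.9% and 17.2%. By TPM, the leading transcript was Pfkp-210, 702 nt long (chr13:6598295-6602811), with 52.0 and 50.5 TPM, or 48.0% and 46.4% of the gene. Of its 702 bases, 444 lie outside the exons of the coding transcripts. Pfkp-211, another retained-intron transcript, held 17.1% and 13.6%. Of the 1726 bases of Pfkp-211, 1414 lie in exons of the coding transcripts, as do 2367 of the 2680 of Pfkp-202. Reads in these bases can belong to either type, so the division between coding and retained-intron transcripts is uncertain. Pfkp-201, the main coding transcript, held 17.3% and 14.0%, or 18.7 and 15.2 TPM. Because Pfkp-210 is short, the imbalance was smaller in reads, of which coding transcripts took 33.7% and 31.0%. Pfkp-210 did not lead in reads, with 628 and 814, beside 968 and 1047.5 of Pfkp-201. The retained-intron transcript Pfkp-212 took 943 and 1273 reads. Its annotated length is 4663 nt in GENCODE M4 and 8681 nt in M21.

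With protein-coding transcripts alone, the comparison added after the data were seen, Pfkp was the lowest of the 3 subunits. It had 21.5 and 18.7 TPM, beside 68.6 and 70.7 TPM of Pfkl and 59.8 and 54.9 TPM of Pfkm. Pfkl then exceeded Pfkp by 1.79 on the log2 scale (95% interval 1.59 to 1.99), or 3.45-fold, and Pfkp lay below Pfkm, with a difference of -1.51 (-1.71 to -1.30). Pfkl stayed above Pfkm, by 0.28 (0.11 to 0.45). The share of Pfkp in the step was 14.4% and 13.0% of coding TPM, beside 45.6% and 45.9% of all TPM. These coding values of Pfkp, and the change of order, rest on the uncertain division of its reads between transcripts.

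**Figure D2:**
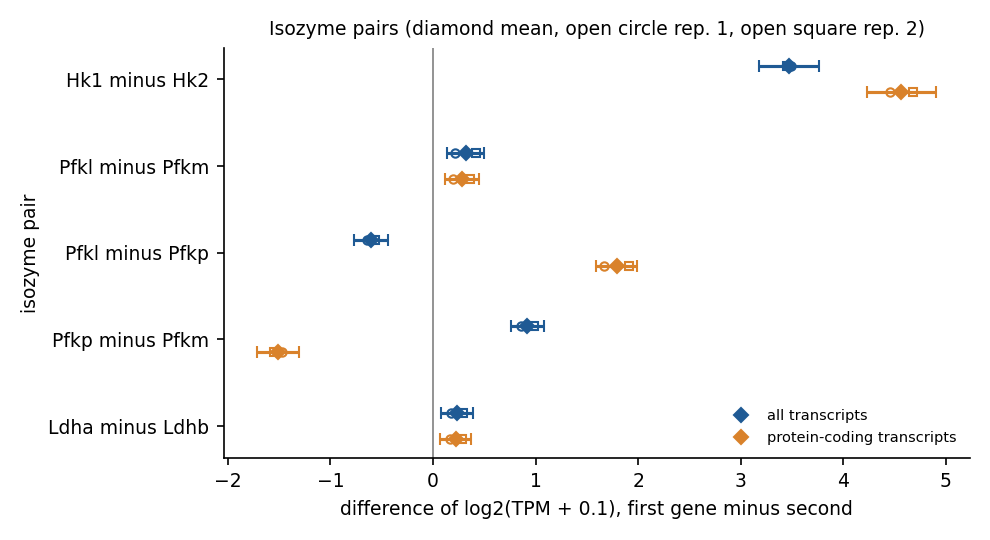
Difference of log2(TPM + 0.1) within each isozyme pair, first gene minus second; diamonds are means of 2 libraries, bars two-sided 95% intervals, open circles replicate 1 and open squares replicate 2. Both pairs with Pfkp change sign between all transcripts (blue, -0.60 and 0.92) and protein-coding transcripts (orange, 1.79 and -1.51), while the other 3 pairs keep theirs.

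Of the 10 genes, Pfkp had a coding share under 50% of the gene's TPM in both libraries. So did 8.13% of 10308 protein-coding genes at a TPM of at least 5. Hk2 lay at the threshold, with 50% in replicate 1 and 41.4% in replicate 2. Taken over the sum of its transcripts in place of the gene value, its share in replicate 1 was 49.9%, also under 50%. The threshold of 50% was set after these shares were seen. In the other 8 genes, coding transcripts held between 96.2% (Pfkl, replicate 2) and 100% of TPM. Exons of Pfkp share 748 bases with Pitrm1, a gene on the opposite strand at 31.5 and 28.5 TPM. Pfkp-210 holds none of those bases. Whether reads were counted by strand was not stated in the available descriptions, so the reads of Pfkp-202 and Pfkp-207, which do hold them, are uncertain. Smaller overlaps with an opposite-strand gene touch Hk1 (157 bases, Hk1os), Aldoa (25 bases, Fam57b) and Pfkm (18 bases, Senp1), and a same-strand transcript, Gm26513, shares 341 bases with Pfkm.

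**Figure D3:**
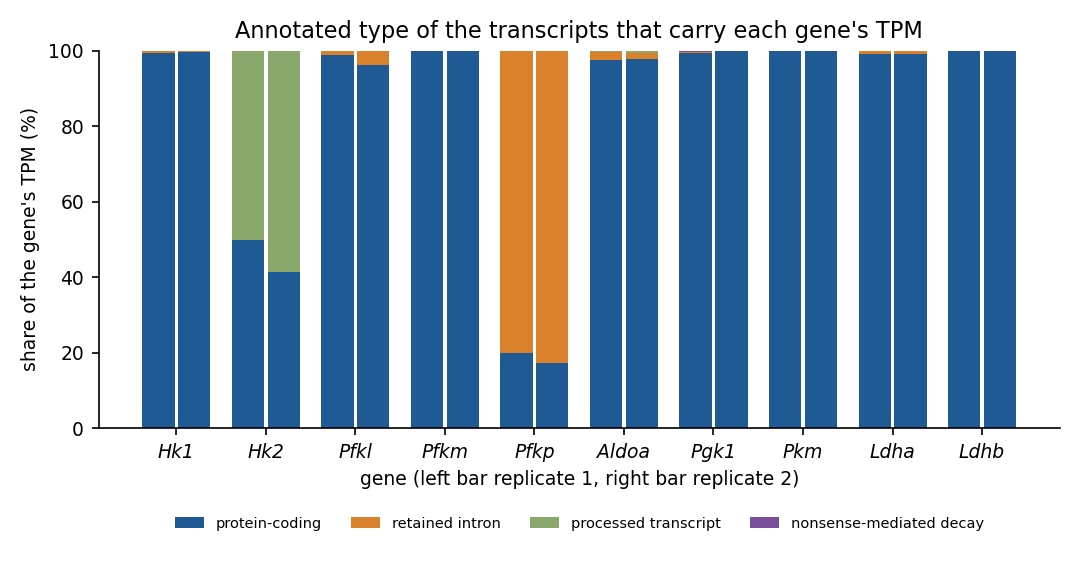
Share of each gene's TPM, in percent, carried by transcripts of each annotated type; the left bar of each gene is replicate 1 and the right bar replicate 2. Pfkp is mostly retained intron (79.96% and 82.8%), Hk2 is divided between coding and processed transcripts, and the remaining genes are nearly all coding.

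Pfkm was carried by a pair of coding transcripts with different starts. Pfkm-201 stood at 29.9 and 31.5 TPM. Pfkm-202, which begins upstream, stood at 29.9 and 23.4 TPM. The TPM bounds that the authors deposited overlapped, at 22.8 to 42.0 for Pfkm-201 and 16.1 to 35.7 for Pfkm-202 in replicate 1, so neither is shown to lead. Pfkl was carried almost wholly by Pfkl-201, at 98.9% and 96.2%.

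Phosphofructokinase is strongly activated by fructose 2,6-bisphosphate, which Pfkfb enzymes make and break and Tigar breaks. All 5 genes of that list were detected, from Pfkfb3 at 20.0 and 18.1 TPM to Pfkfb1 at 3.72 and 2.95 TPM.

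Aldolase cleaves fructose 1,6-bisphosphate into a pair of triose phosphates. Aldoa (chr7:126795234-126800751, minus strand), the muscle and general isozyme, stood at 275 TPM in replicate 1 and 273 TPM in replicate 2. Aldoc, the isozyme of adult brain, stood at 21.7 and 22.2 TPM. Of the summed TPM of this pair, Aldoa held 92.7% and 92.5%.

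Aldoa has several annotated starts, and its RNA was unevenly divided between them. Aldoa-201 held 87.7% and 88.3% of TPM. Aldoa-203, whose first base lies 1193 bases upstream, held 7.13% and 5.77%. The deposited bounds of Aldoa-203 were wide, from 10.3 to 32.1 TPM in replicate 1 and from 6.10 to 22.4 TPM in replicate 2, but stayed far below those of Aldoa-201, whose lowest bound was 218 TPM. The 300-base windows around both starts (RefSeq, GRCm38.p6, minus strand, printed 5′ to 3′) are shown so that the starts can be compared. Capitals mark the GC box GGGCGG, searched on both strands, and no 2 matches overlap.
Aldoa-201 (chr7:126799205-126799504): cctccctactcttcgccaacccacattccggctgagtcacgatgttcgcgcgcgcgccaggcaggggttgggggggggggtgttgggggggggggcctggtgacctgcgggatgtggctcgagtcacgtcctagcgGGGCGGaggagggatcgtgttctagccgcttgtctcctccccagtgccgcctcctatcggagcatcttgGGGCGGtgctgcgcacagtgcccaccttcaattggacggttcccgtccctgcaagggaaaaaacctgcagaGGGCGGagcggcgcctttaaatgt
Aldoa-203 (chr7:126800398-126800697): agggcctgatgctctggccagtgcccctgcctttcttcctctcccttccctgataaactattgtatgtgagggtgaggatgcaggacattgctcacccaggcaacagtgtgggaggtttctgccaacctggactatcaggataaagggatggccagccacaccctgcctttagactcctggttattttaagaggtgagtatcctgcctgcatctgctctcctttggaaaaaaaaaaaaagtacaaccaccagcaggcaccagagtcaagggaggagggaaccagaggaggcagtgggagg
The window of Aldoa-201 held 3 matches and was 65.7% G or C, while that of Aldoa-203 held 0 and was 52.7% G or C. Of 32851 windows of this length, 35.7% held the motif, as did 8 of the 18 windows listed for the 10 genes. A match describes the letters and is no evidence of a bound factor.

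Phosphoglycerate kinase makes the first ATP of the pathway. Pgk1 (chrX:106187100-106203699, plus strand) stood at 204 and 205 TPM, with 99.5% and 99.9% on Pgk1-201. Its testis relative Pgk2 had no reads in either library. A processed pseudogene, Pgk1-rs7, was listed at 31.4 and 23.9 TPM, from 1026 and 1041 reads. All 1255 bases of its transcript that were aligned are the same as in Pgk1-201, so reads cannot tell this part of the 2 apart and the division between them is uncertain. Together they summed to 235 and 229 TPM. No other copy of the 10 genes that was looked for by name passed 1.20 TPM, the value of Ldha-ps2 in replicate 1.

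Pyruvate kinase makes the last ATP and the pyruvate. Pkm (chr9:59656368-59679375, plus strand) stood at 1053 and 1027 TPM, and Pklr, the gene of liver and red cells, at 0.20 and 0.01 TPM. Pkm exceeded Ldha, the next gene in the order, by 1.31 on the log2 scale (95% interval 1.14 to 1.47).

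Pkm is spliced into forms that hold one or the other of a pair of adjacent exons. M1 is the constitutively active form of adult muscle and brain, and M2, the form of embryonic and dividing cells, is switched by metabolites. The M1 and M2 exons stand 372 bases apart, are 167 bases long each and share 103 of 167 bases (61.7%). They are given because they define the forms, and capitals mark the 64 bases that differ, position by position (GENCODE M21, GRCm38, plus strand).
M1, exon 9 of Pkm-202 (chr9:59675029-59675195): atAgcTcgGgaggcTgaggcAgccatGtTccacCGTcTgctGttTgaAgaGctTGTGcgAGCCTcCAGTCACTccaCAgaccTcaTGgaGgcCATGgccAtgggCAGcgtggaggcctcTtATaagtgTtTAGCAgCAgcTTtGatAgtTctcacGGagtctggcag
M2, exon 9 of Pkm-201 (chr9:59675568-59675734): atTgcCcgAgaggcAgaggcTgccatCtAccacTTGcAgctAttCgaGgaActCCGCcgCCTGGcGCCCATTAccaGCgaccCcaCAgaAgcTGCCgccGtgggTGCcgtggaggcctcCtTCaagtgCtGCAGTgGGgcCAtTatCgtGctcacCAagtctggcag

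Both forms were abundant, and M2 led in each library. The M2 transcript stood at 615 TPM in replicate 1 and 594 TPM in replicate 2, or 58.4% and 57.8% of the gene. The M1 transcript stood at 438 and 433 TPM, or 41.6% and 42.2%. The ratio of M2 to M1 was 1.40 and 1.37 (mean 1.39, SD 0.02, n = 2). The authors' deposited bounds, whose confidence level is not stated, ran from 583 to 611 TPM for M2 and 413 to 440 TPM for M1 in replicate 1. In replicate 2 they ran from 569 to 592 TPM for M2 and 413 to 435 TPM for M1. The bounds of the forms did not overlap in either library. The bounds belong to the authors' posterior mean, and the M2 values given here lie just above them.

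The exon of each form was read from a later annotation (GENCODE M21) than the one of the files (M4). Pkm-201 has the same length in both, 2432 nt, but Pkm-202 is 2432 nt in the files and 2041 nt in M21, where its first exon is 205 and its last exon 186 bases shorter. The assignment of M1 to Pkm-202 therefore assumes that its inner exons are as in M21. Beside these M1 levels, the 5 muscle markers summed to 3.90 and 3.44 TPM. Acta1, the one detected, stood at 2.58 and 1.85 TPM, and Ckm at 0 and 0.03 TPM. The part of muscle RNA in the M1 level was not tested.

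The splicing of this exon pair is known to be steered by Ptbp1, Hnrnpa1 and Hnrnpa2b1, which hold back the M1 exon, and by Srsf3, which aids M2. All 5 genes of the splicing list, which also holds the neuronal Ptbp2, were detected. Hnrnpa2b1 was highest at 965 and 917 TPM and Ptbp1 lowest at 84.2 and 88.4 TPM, with Ptbp2 above it at 203 and 178 TPM. With 1 tissue and age, no relation of these levels to the M2 share could be measured.

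Lactate dehydrogenase is a tetramer of A subunits (Ldha), the form of muscle and of cells that make lactate, and B subunits (Ldhb), the form of heart. In coding sequence, 73.0% of their aligned bases are the same. Ldha (chr7:46841475-46855627, plus strand) stood at 409 TPM in replicate 1 and 431 TPM in replicate 2. Ldhb (chr6:142490249-142507957, minus strand) stood at 363 and 351 TPM. Ldha was the higher in both libraries, by 0.17 and 0.30 on the log2 scale. The mean difference was 0.24 (95% interval 0.08 to 0.39, SD 0.09, n = 2), or 1.18-fold, and it was no longer apart from 0 when the spread was moderated without a trend on level.

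The subunits thus made up 53.0% and 55.1% (Ldha) and 47.0% and 44.9% (Ldhb) of the step. A single coding transcript carried each, Ldha-202 with 96.9% and 97.0% and Ldhb-201 with 99.6% and 99.8%. The testis gene Ldhc stood at 0.08 and 0.12 TPM. Ldhd, which acts on D-lactate, stood at 0.31 and 0.38 TPM. Of the carriers of glucose and lactate, 6 of 7 were detected. Slc2a1 (GLUT1) led at 78.05 and 86.1 TPM, and Slc2a2, the carrier of liver and islets, was lowest at 0.03 and 0.02 TPM. Of the lactate carriers, Slc16a3 stood at 8.20 and 10.9 TPM, Slc16a1 at 7.67 and 7.51 TPM, and Slc16a7 at 1.89 and 2.29 TPM.

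Between the libraries, the 10 genes differed little. No test is possible between single libraries, so a rule of size was used: at least 2-fold after TMM scaling of counts, with a mean count of at least 50. Of the 10 genes, 0 passed it, beside 0.724% of 14361 genes that reached this count. Ratios of replicate 1 over replicate 2 ran from 0.916 for Ldha to 1.05 for Hk2. Exact (Clopper-Pearson) 95% intervals, which cover counting error only, left out 1 for 4 genes. These were Ldha (0.916, interval 0.895 to 0.938), Pfkl (0.938, 0.904 to 0.973), Pgk1 (0.960, 0.931 to 0.990) and Pfkm (1.05, 1.01 to 1.10). The share of all genes whose interval left out 1 was not computed, so this count is not a trait of the 10 genes. Hk2, with the fewest reads, had the widest interval, from 0.898 to 1.24. The median absolute log2 ratio was 0.05 over the 10 genes and 0.10 over all genes of this count. The wider set was not matched for reads to the 10 genes, whose mean counts ran from 316 (Hk2) to 56638 (Pkm). Counting error is larger where reads are few, so the 2 medians cannot be compared as a trait of these genes.

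**Figure D4:**
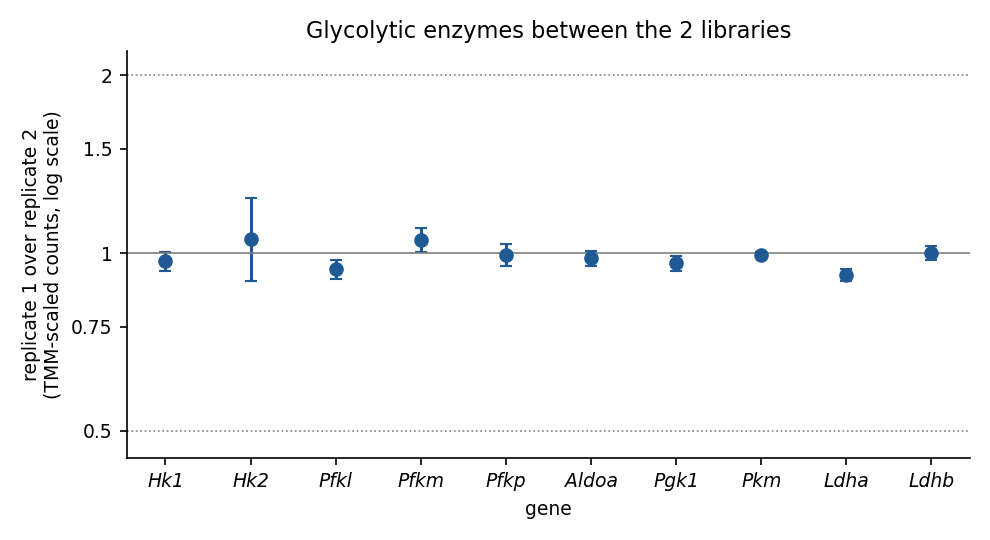
Ratio of replicate 1 over replicate 2 in TMM-scaled counts, on a log axis, for each gene; bars are exact 95% intervals for counting error and dotted lines mark 2-fold. All 10 genes lie between 0.916 and 1.05, with the widest interval at Hk2.

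Of steps served by other genes, Gapdh, which oxidises glyceraldehyde phosphate, stood at 1218 and 1212 TPM over all its transcripts, above Pkm. In protein-coding transcripts alone it stood at 475 and 481 TPM, below the 1053 and 1027 TPM of Pkm. Eno1, the general enolase, stood at 786 and 742 TPM. Eno2, the enolase of mature neurons, stood at 24.0 and 21.7 TPM, and Eno1 held 96.2% of enolase TPM in both libraries. Of 7 genes of other steps 6 were detected, the exception being the sperm form Gapdhs at 0.94 and 1.69 TPM. Of 7 gluconeogenic genes 3 were detected (G6pc3, Pcx and Pck2), the highest being G6pc3 at 25.8 TPM in each library, while Pck1 and G6pc had no reads.

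**Figure D5:**
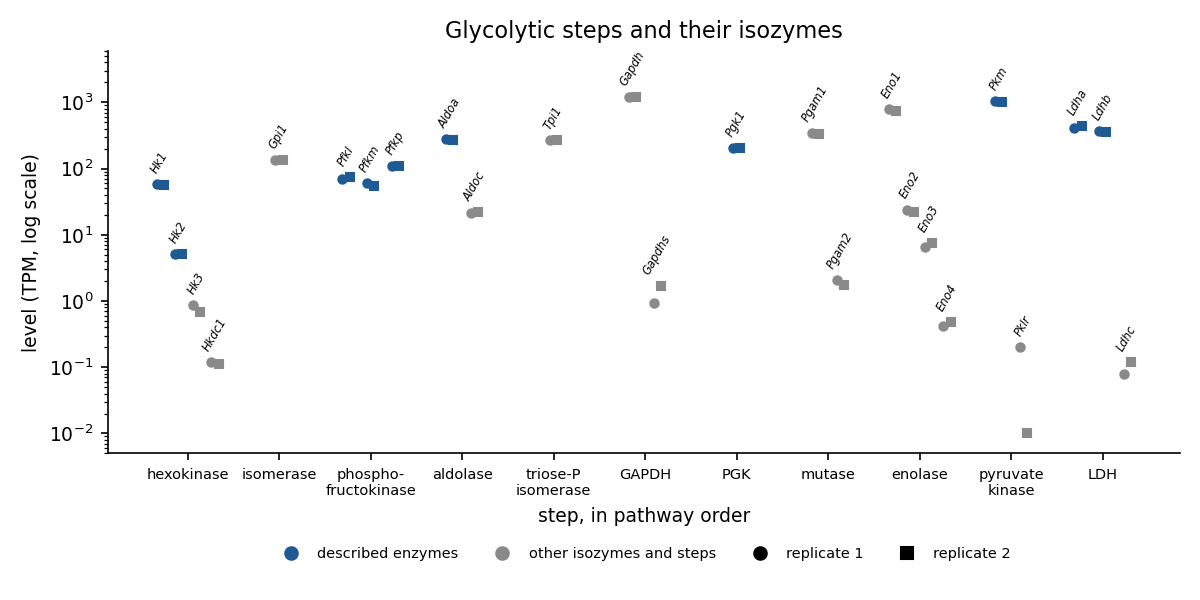
Level in TPM, on a log axis, of isozymes at each glycolytic step from hexokinase to lactate dehydrogenase; circles are replicate 1, squares replicate 2, and the 10 genes described are blue. Where a step has more than 1 gene drawn, one leads by a wide margin except at phosphofructokinase and lactate dehydrogenase. Pgk2, at 0, is not drawn.

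Of 8 regulators of the hypoxia and Myc pathways, which are known to act on many of these genes, 8 were detected. Hif1a, the oxygen-regulated subunit of the hypoxia factor, was highest at 68.2 and 66.3 TPM, and Egln3 lowest at 3.23 and 3.12 TPM. Of 7 genes of the pyruvate dehydrogenase complex and its kinases, which decide whether pyruvate enters mitochondria, 6 were detected. Pdhb was highest at 191 and 178 TPM, and the kinase Pdk4 lowest at 0.74 and 0.58 TPM.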

How the data were processed

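The authors deposited a gene table and a transcript table per library, on mm10 with GENCODE M4, per the text deposited with each library. Expected counts are estimated reads that need not be whole, per the file headers, and were rounded for TMM scaling. TPM values were deposited per length and scaled over all entries, spike-ins included (5.36% of TPM in replicate 1 and 9.39% in replicate 2). FPKM values were deposited by the authors as well. Deposited percent values give each transcript's share of its gene. The authors' TPM bounds come without a confidence level. The aligner and tool versions are not stated in the available descriptions.

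Names, types and positions came from GENCODE M21 and promoters from RefSeq. Levels were compared with limma 3.58.1 on log2(TPM + 0.1) after median centring, and counts scaled with edgeR 4.0.16 in R 4.3.3. The fold understates differences of low genes. A gene was detected at TPM of at least 1 in both libraries. The intervals and the 2-fold rule were tested on simulated data. Alternatives were other pseudocounts, filters, units, moderation, DESeq2 1.42.0 size factors and each library alone. The genes, lists and pairs were chosen with earlier results of these data known. All 10 genes, the isozymes of their steps, the highest and lowest gene of each other list and leading transcripts were to be named; further genes named were chosen after their values were seen. Some genes that this rule takes are not reported here, and shares of a step are over the genes named for it, leaving out Ldhd. SDs measure only the spread between these libraries, and without molecular identifiers a read need not be a separate molecule.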

Additional observations from a re-analysis of the deposited data

How the results depend on the processing

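The order of the 3 phosphofructokinase genes turned with the transcripts counted. With protein-coding transcripts only, added after seeing the data, Pfkl over Pfkp was 1.79 and Pfkp over Pfkm -1.51 on the log2 scale. Both values rest on the uncertain division of Pfkp reads between its coding and retained-intron transcripts. Without a trend in the moderation, Ldha over Ldhb kept its value of 0.24 but its interval reached 0, since the spread is then estimated otherwise. The median level of the 10 genes was 169 with TPM rescaled to genes, 98.7 as FPKM, 154 as posterior mean TPM and 137 for coding transcripts. In expected counts, which are not per length, the share of its step was 93.5% for Hk1, 43.3% for Pfkl, 26.9% for Pfkm, 29.8% for Pfkp and 58.9% for Ldha. In coding TPM it was 95.3%, 47.4%, 39.0% and 13.7% for Hk1, Pfkl, Pfkm and Pfkp, and in posterior mean TPM 89.6% for Hk1 and 46.0% for Pfkp. The coding share in reads was 32.3% for Pfkp and 89.8% for Hk2. At a TPM of at least 10, 9 of the 10 genes were detected. The number of pairs apart was between 43 and 44 under every alternative run, and 0 of the 10 genes passed 2-fold or 1.5-fold between libraries. With 2 libraries, leaving one out gives the other's value, and both are printed with the results, so it is no check of stability. With 1 group, no paired analysis was possible because there is no second group to pair.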

Other observations

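Gapdh, often used as a reference gene, resembled Pfkp in that protein-coding transcripts carried the lesser part of its TPM, 39.0% in replicate 1 and 39.7% in replicate 2, or 475 and 481 TPM. The splicing factor Srsf3 was divided alike, with 38.0% and 39.9% of its TPM on coding transcripts, or 279 and 264 TPM. In reads the likeness to Pfkp did not hold. Coding transcripts took 67.9% and 68.2% of the reads of Gapdh and 53.2% and 55.4% of those of Srsf3. For Pfkp they took 33.7% and 31.0%. The pathway, transporter and regulator lists held 36 other genes at a TPM of at least 5. Of these, Gapdh and Srsf3 were the 2 with a coding share under 50% of TPM in both libraries. That is 5.56%, not above the 8.13% over all protein-coding genes at this level. Next came Pfkfb2 with 62.5% and 55.2%, and Eno2 with 59.7% and 66.0%. They were named after their values were seen.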
